A study of Homo sapiens with 36 samples.

Results

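MEC1 is a human B-cell line established from chronic lymphocytic leukaemia (CLL) in prolymphocytoid transformation. Its transcriptome was compared after 48 h with 10 µM idelalisib or with the DMSO vehicle alone. The comparison rests on the 3 libraries labelled as idelalisib and the 3 labelled as DMSO for this line, 6 of the 36 libraries of a series that also covers fludarabine, ibrutinib and other B-cell lines. All MEC1 libraries are of 1 line, so nothing in them speaks for CLL cells of patients. The labels number the libraries, consecutively within a group, and values are given in that order, so that the first DMSO library is the one with the lowest number. The idelalisib libraries stand far above the DMSO libraries in these numbers, and no DMSO library lies near them, so the number series and the drug cannot be told apart in this contrast. The 3 MEC1 libraries treated with 5 µM ibrutinib for 48 h carry numbers next to those of idelalisib and are used as a second reference. The 3 idelalisib and 3 DMSO libraries of JVM2, another B-cell line of mature B-cell leukaemia, were taken at 72 h. The study's methods list MEC1 as p53-mutated and JVM2 as p53 wild-type. Nothing in the labels says that the libraries of a group came from separate cultures, so p-values measure only the spread between these libraries.

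Idelalisib inhibits the delta isoform of the catalytic subunit of phosphoinositide 3-kinase (PI3K), the isoform that carries most PI3K signalling in B lymphocytes. Below the B-cell receptor (BCR), PI3K makes the membrane lipid that recruits AKT and, with BTK, the phospholipase PLCG2. AKT keeps the FOXO transcription factors out of the nucleus and feeds the mTOR complex, which drives protein synthesis, amino acid and lipid supply through ATF4, SREBP and MYC, and entry into S phase. Ibrutinib blocks BTK, a kinase of the same pathway.

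Library totals were 37077174 to 46425576 counts with DMSO and 37846913 to 45695754 with idelalisib. Genes with any count numbered 19557 to 20261 per DMSO library and 20990 to 21731 per idelalisib library. Short structured noncoding RNAs (7SL, 7SK, RMRP and the RNase P RNA) took 8.46 to 10.7% of the counts with DMSO, 10.7 to 13.3% with ibrutinib and 17.0 to 19.2% with idelalisib. All 8 B-cell markers were measured, and their summed level was 1295 to 1364 CPM (counts scaled to a common library total) with DMSO and 2145 to 2184 CPM with idelalisib. Markers of other blood cells summed to 6.45 to 7.65 and 10.7 to 12.1 CPM for T cells, most of it from CD28, with CD3D, CD3G and CD8B too low to test. The sums were 60.5 to 71.0 and 85.7 to 85.9 CPM for NK cells, and 31.2 to 37.5 and 47.9 to 55.5 CPM for stromal and epithelial cells. Of the 9 monocyte and granulocyte markers 6 were too low to test, CD14 and LYZ among them, and no erythroid or platelet marker could be tested. The part of library composition in the results below was not tested.

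Of the 17516 genes tested, 9640 (55.0%) differed between idelalisib and DMSO at an adjusted p under 0.05 in edgeR's quasi-likelihood test. All adjusted p-values below come from this test unless another is named. Of all genes tested, 4843 (27.6%) were higher and 4797 (27.4%) lower with idelalisib. A change of at least 2-fold was called for 2208 genes (12.6%) upwards and 1330 genes (7.59%) downwards. The median log2 fold change over all genes was 0.08. These shares are the background for each gene list below: a list with 27.6% of its members higher and 27.4% lower behaved like the genes at large.

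Lists in which most members fell included the amino acid response under ATF4, DNA replication, mitosis, the immediate early genes of ERK signalling, the chromatin modifiers, fatty acid synthesis, the tricarboxylic acid cycle and glycolysis. Lists in which most members rose included interferon-stimulated genes, cytosolic ribosomal proteins, mitochondrially encoded proteins, histones, immunoglobulin constant genes and the B-cell surface genes. Components of the BCR, the lysosome, the proteasome and the B-cell transcription factors were split in both directions.

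Among genes called by 3 tests (edgeR, DESeq2 and limma-voom) at a mean of at least 10 CPM and without overlap of the groups, the 10 that rose most were led by an antiviral gene. IFIT1, an interferon-induced RNA-binding protein on chromosome 10 (GRCh38, 89392546 to 89406487), was at 3.45, 3.31 and 2.99 CPM with DMSO and at 44.3, 34.5 and 42.1 CPM with idelalisib (log2 fold change 3.63, SE 0.145, adjusted p = 2.17e-08). RSAD2, the antiviral enzyme viperin, was at 1.94 to 2.55 CPM and 17.4 to 20.4 CPM (log2 fold change 3.08). AIM2, a sensor of DNA in the cytosol, stood at 10.3 to 14.3 CPM with DMSO and at 81.6 to 90.5 CPM with idelalisib (2.76). No idelalisib library came near the DMSO range for any of the 3 genes. The same group held the long noncoding RNAs LINC02245 (3.22), IFNG-AS1 (2.95), LINC01087 (2.79) and MIR155HG (2.72), the last of which is the host transcript of miR-155, a microRNA of activated B cells. MIR155HG, on chromosome 21 from 25561810 to 25575168, read 24.7, 25.2 and 25.1 CPM with DMSO and 166, 148 and 180 CPM with idelalisib. The other members were ABCA6, a lipid transporter of the ABC family (3.28), CFAP54, a protein of cilia (3.12), and KLRF1, a receptor best known from NK cells (2.78).

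The 10 genes that fell most by the same rule were led by GEM, a small GTPase of the RAD and GEM family induced by mitogens. It was at 37.3, 38.7 and 32.7 CPM with DMSO and at 2.43, 2.32 and 2.28 CPM with idelalisib (log2 fold change -3.95, SE 0.116, adjusted p = 7.32e-09). CDH17, a cadherin, was at 64.6 to 67.5 CPM and 4.54 to 6.37 CPM (-3.59). 4 of the entries were microRNA precursor loci of the ribosomal DNA repeat, MIR3687-1 (-3.71), MIR3687-2 (-3.66), MIR3648-1 (-3.55) and MIR3648-2 (-3.55), near-identical copies between which reads may be split, and whose counts say nothing of the mature microRNAs. MIR3648-1, at position 8208473 to 8208652 of chromosome 21, stood at 1766, 1376 and 1914 CPM with DMSO and at 152, 141.5 and 138 CPM with idelalisib. INHBE, an inhibin subunit and ATF4 target (chromosome 12, 57452323 to 57459280), fell from 27.0 to 29.4 CPM to 2.52 to 2.70 CPM (-3.40). ASS1, argininosuccinate synthase of arginine synthesis (-3.39), DUSP4, a phosphatase of MAP kinases (-2.96), and NECTIN1, an adhesion molecule (-2.92), completed the group. Over all genes tested, 64.0% had groups that did not overlap.

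The list that fell most was the ATF4 and amino acid response, the programme that supplies amino acids, charges transfer RNAs and limits growth when they are short. Of 41 members 39 fell, 26 of them at least 2-fold, and PSPH, an enzyme of serine synthesis, was the 1 that rose. The list median was -1.38, and it lay between -1.47 and -1.26 under the other normalisations, filters and tests. CHAC1, which degrades glutathione, was at 13.8, 10.3 and 10.0 CPM with DMSO and at 1.63, 2.18 and 2.28 CPM with idelalisib (log2 fold change -2.48, SE 0.191, adjusted p = 1.01e-06). PHGDH, the first enzyme of serine synthesis, read 45.9, 41.7 and 45.7 CPM against 8.18, 8.82 and 7.08 CPM (-2.47, adjusted p = 2.03e-08). ASNS, asparagine synthetase, read 134.3, 145 and 132.6 CPM against 37.9, 33.5 and 37.4 CPM (-1.92). The groups lay far apart in all 3 genes. Lower too were SESN2, a sensor of leucine that restrains mTOR (-2.39), TRIB3, a pseudokinase induced by ATF4 (-1.71), DDIT3, the stress factor CHOP (-1.54), and the cystine transporter SLC7A11 (-1.26). DDIT4, another brake on mTOR, was at 276 to 290 CPM with DMSO and 142.2 to 145 CPM with idelalisib (-0.98).

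The promoters of the ATF4 list were searched for the 8 letters TGATGCAA, the core of the amino acid response element, on both strands of a window from 250 bases before to 50 bases after the RefSeq start site. Of the 31 members with a promoter sequence 6 held it (19.4%), against 0.541% of the 12008 promoters of tested genes. The 3 with the largest change are printed because they carry the letters in genes that fell with the list, with the match in capitals, taken from RefSeq on GRCh38.p14 and printed 5′ to 3′ on the strand of the gene. The list is made of known ATF4 targets, so the share is a description of its members.
CHAC1, chr15:40953232-40953299, plus strand: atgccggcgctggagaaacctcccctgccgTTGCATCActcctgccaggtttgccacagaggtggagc
AARS, chr16:70289656-70289723, minus strand: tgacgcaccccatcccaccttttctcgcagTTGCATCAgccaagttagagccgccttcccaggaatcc
CARS, chr11:3057388-3057455, minus strand: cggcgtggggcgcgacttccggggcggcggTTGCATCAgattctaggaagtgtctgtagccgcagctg
AARS and CARS charge the transfer RNAs of alanine and cysteine, and their log2 fold changes were -1.81 and -1.38. In all 3 windows the element stands on the strand opposite to the gene. The first capital stands 209, 187 and 2 bases before the start site, so the match in CARS runs across that site.

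DNA replication was the other large block of lower genes. Of 54 members 41 fell, 26 of them at least 2-fold, and 2 rose, with a list median of -0.94. CDT1, which loads the MCM helicase at origins, was at 375, 368 and 356 CPM with DMSO and at 76.2, 75.0 and 78.0 CPM with idelalisib (log2 fold change -2.26, SE 0.069, adjusted p = 7.32e-09). MCM2, a helicase subunit, read 414, 375 and 402 CPM against 113, 115 and 121 CPM (-1.77), and MCM5 read 259 to 280 CPM against 123 to 128 CPM (-1.09). E2F1, the transcription factor of S-phase entry, stood at 107 to 110 CPM with DMSO and 33.9 to 36.5 CPM with idelalisib (-1.62). Replicates of these 4 genes lay close together, and the groups did not overlap. CDC6, another loading factor, fell (-0.92). RRM2, a subunit of ribonucleotide reductase, varied within both groups (361, 169 and 366 CPM against 125, 121 and 214 CPM), and its call (-0.96, adjusted p = 0.0369) was lost without the first or the third DMSO or the first or the second idelalisib library, with adjusted p-values between 0.114 and 0.116. The 2 members that rose were POLE2, a subunit of DNA polymerase epsilon (0.68), and RPA3, of the single-strand binding complex (0.39).

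The 8 letters TTTGGCGC or TTTCCCGC, forms of the E2F site, were present on either strand in 20 of the 45 promoters available for the replication list (44.4%), against 3.45% of the promoters of tested genes. Of the 37 members that fell and had a promoter, 15 held a site, as did the 1 that rose and had a promoter. The list is made of known S-phase genes, so the share is a description of its members and was not tested against their fall. The 3 that fell most among those with a site are shown, with the match in capitals (RefSeq, GRCh38.p14, strand of the gene).
CDT1, chr16:88803724-88803791, plus strand: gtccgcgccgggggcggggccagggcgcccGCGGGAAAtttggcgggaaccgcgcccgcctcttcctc
E2F1, chr20:33686368-33686435, minus strand: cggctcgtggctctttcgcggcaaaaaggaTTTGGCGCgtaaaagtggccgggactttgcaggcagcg
LIG1, chr19:48170421-48170488, minus strand: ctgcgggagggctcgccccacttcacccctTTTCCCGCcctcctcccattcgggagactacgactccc
LIG1 is the ligase that joins Okazaki fragments, and its log2 fold change was -1.49. The sites stand 35, 20 and 114 bases before the start sites.

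Genes of mitosis and G2/M moved less and not as one. Of 42 members 31 fell, 6 of them at least 2-fold, and 4 rose (median -0.48). MKI67, the proliferation marker Ki-67, was at 839, 919 and 789 CPM with DMSO and at 268, 335 and 326 CPM with idelalisib (log2 fold change -1.46, SE 0.107). INCENP, of the chromosomal passenger complex (-1.73), PRC1, of the spindle midzone (-1.51), KIF2C, a kinesin of the centromere (-1.49), and TOP2A, topoisomerase II alpha (-0.91), fell too. CCNB1, cyclin B1, went the other way, from 74.7 to 79.5 CPM to 119 to 136 CPM (0.70, adjusted p = 1.58e-05). HMMR, a spindle protein, also rose (0.56), and the kinase CDK1 fell only slightly (-0.24), a call lost under a stricter filter on low counts (adjusted p = 0.0916). FOXM1, the transcription factor of the G2/M programme, read 59.1 to 62.0 CPM and 69.6 to 80.3 CPM and did not pass (0.33, adjusted p = 0.501), although the groups did not overlap. The spread in this test came from all 12 MEC1 libraries, and those with ibrutinib read 38.35 to 88.46 CPM. Under the other normalisations, filters and tests its adjusted p lay between 0.0075 and 0.64, so the call depended on the setting. Of the 20 cyclins, CDKs and their inhibitors 14 fell and 2 rose. The inhibitors CDKN1A (-1.22) and CDKN1B (-0.63) and the phosphatase CDC25A, an activator of CDKs (-1.36), were all among the lower genes, and RB1, the retinoblastoma protein, was higher (0.85). The call of CCND3, cyclin D3 (-0.95, adjusted p = 0.0213), did not hold in limma-voom (adjusted p = 0.0530) or without the third DMSO library (adjusted p = 0.109), which read 52.3 CPM against 28.6 and 24.6 CPM in the others, or without the second or the third idelalisib library (adjusted p = 0.0592 and 0.0510). Of 34 genes of DNA damage signalling and repair 19 fell, among them RAD54L of recombination (-1.44), the checkpoint mediator MDC1 (-1.30) and MSH6 of mismatch repair (-1.29), and 4 rose, among them ATM (0.85), ATR (0.43) and NBN (0.94), which sense breaks and stalled forks.

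Immediate early genes and feedback genes of ERK, which respond within minutes to receptor signals, fell with a median of -1.04. Of 28 members 20 fell, 14 of them at least 2-fold, and 3 rose. EGR1, a zinc-finger factor induced by the BCR, was at 7.30, 6.15 and 8.0 CPM with DMSO and at 2.08, 1.94 and 2.05 CPM with idelalisib (log2 fold change -1.82, SE 0.545, adjusted p = 0.0146). DUSP1, a phosphatase of MAP kinases, read 10.2 to 11.2 CPM and 2.28 to 2.81 CPM (-2.05), and DUSP6, a phosphatase of ERK, 1.49 to 1.70 CPM and 0.355 to 0.860 CPM (-1.35). ETV5, an ETS factor downstream of ERK, fell by 1.69 on the log2 scale. EGR2 read 5.44 to 7.71 CPM and 1.60 to 2.01 CPM (-1.90), a call lost with limma-voom (adjusted p = 0.0552). FOS was low in all libraries, at 1.17 to 1.82 CPM with DMSO and 0 to 0.415 CPM with idelalisib. Against this direction, CD69, an early activation marker of lymphocytes that restrains their exit from tissue, was at 63.4, 60.1 and 60.9 CPM with DMSO and at 287.7, 244 and 286.5 CPM with idelalisib (2.15, adjusted p = 2.03e-08). The other 2 that rose, DUSP2 and DUSP5, changed by 0.24 each and lost the call when libraries were scaled by size alone (adjusted p = 0.0755 and 0.126).

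Interferon-stimulated genes were mostly higher. Of 38 members 29 rose, 19 of them at least 2-fold, and 2 fell, with a median of 1.04 that stayed between 0.94 and 1.10 under the other normalisations, filters and tests. ISG15, a ubiquitin-like protein induced by interferon, was at 66.0, 54.8 and 76.2 CPM with DMSO and at 220, 205 and 225 CPM with idelalisib (log2 fold change 1.72, SE 0.120, adjusted p = 5.05e-07). CMPK2, the neighbour of RSAD2 and a nucleotide kinase, read 6.59 to 8.88 CPM and 30.4 to 33.0 CPM (2.11). The rise was smaller in MX1, an antiviral GTPase (351 to 372 CPM and 514 to 544 CPM, 0.56). OAS3, an antiviral RNA sensor, fell (-0.78), and STAT2, a transcription factor of the pathway, fell by 0.23 on the log2 scale (adjusted p = 0.0236), a call lost under the stricter filter (adjusted p = 0.221) and without the first or second DMSO or the first idelalisib library.

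The letters GAAANNGAA, the core of the interferon-stimulated response element, where N is any base, were present on either strand in 19 of the 29 promoters available for this list (65.5%), against 6.95% of those of tested genes. Of the 24 members that rose and had a promoter 17 held it, and of the 2 that fell 1 did. The list is made of known interferon-induced genes, so the share is a description of its members. The 3 that rose most among those with the letters are shown (RefSeq, GRCh38.p14, strand of the gene, match in capitals).
IFIT1, chr10:89392478-89392546, plus strand: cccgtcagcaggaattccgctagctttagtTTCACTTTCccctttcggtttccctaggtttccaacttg
RSAD2, chr2:6865776-6865844, plus strand: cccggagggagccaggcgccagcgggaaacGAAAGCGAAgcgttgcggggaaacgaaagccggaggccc
ISG20, chr15:88638917-88638985, plus strand: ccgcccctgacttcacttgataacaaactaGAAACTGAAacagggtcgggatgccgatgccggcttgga
ISG20 is an interferon-induced exonuclease with a log2 fold change of 1.86. The IFIT1 promoter held 2 matches, both within the printed window, and the capitals mark the one 115 bases before the start site.

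Among genes of B-cell identity and the BCR, the RNA of the receptor chains CD79A and CD79B and of several surface markers rose, while the signalling components were split. CD79B, one of the signalling chains of the BCR, was at 70.4, 73.0 and 69.0 CPM with DMSO and at 239.1, 202 and 237.9 CPM with idelalisib (log2 fold change 1.68, SE 0.0968, adjusted p = 1.5e-07), and its partner CD79A at 119 to 128 CPM and 265 to 296 CPM (1.17). MS4A1, which encodes the antibody target CD20, read 110 to 121 CPM against 286.4 to 358 CPM (1.49). These 3 genes at least doubled in every idelalisib library against the highest DMSO library. CD52, another antibody target, rose by 1.00 on the log2 scale, and CD38 from 1.41 to 1.94 CPM to 9.40 to 10.4 CPM (2.56). FCER2, which encodes CD23, did not pass (83.5 to 96.2 CPM and 90.3 to 99.2 CPM, adjusted p = 0.364). CD5, which marks CLL cells in patients, was below 1 CPM in every library, and ROR1 was too low to test. Of the 24 signalling components of the BCR 8 rose and 8 fell, not far from the 27.6% and 27.4% of all genes tested, with a list median of 0.10. BTK (0.13, adjusted p = 0.491) and the SRC-family kinase LYN (-0.11, adjusted p = 0.0757) did not pass. PLCG2, the phospholipase activated by BTK, fell from 321 to 346 CPM to 182 to 190.7 CPM (-0.84).

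Immunoglobulin transcripts rose: 9 of the 11 constant genes and J chain were higher and none lower, with a median of 0.84. IGKC, the kappa light chain constant gene, was at 380, 348 and 358 CPM with DMSO and at 1861, 1571 and 1863 CPM with idelalisib (log2 fold change 2.29, SE 0.0925, adjusted p = 2.23e-08). JCHAIN, which joins secreted immunoglobulin, read 384 to 402 CPM and 1220 to 1816 CPM (1.91). IGHM, the heavy chain of the receptor, read 992 to 1058 CPM and 1469 to 1576 CPM (0.57), a call that was lost in a fit over all 36 libraries (adjusted p = 0.251). Of 8 cytidine deaminases (AID and the APOBEC3 genes) 4 fell, APOBEC3B (-0.51) and APOBEC3C (-0.86) among them, and 1 rose at least 2-fold. The summed level of these 8 genes was 825 to 870 CPM with DMSO and 1216 to 1293 CPM with idelalisib. Of 26 transcription factors of B and plasma cells 8 rose and 8 fell. PAX5 and EBF1, which hold B-cell identity, did not pass (332 to 372 CPM against 326 to 361 CPM, and 120 to 140 CPM against 140 to 144.4 CPM). PRDM1, the factor BLIMP1 of plasma cells, fell from 10.8 to 14.2 CPM to 1.5 to 4.27 CPM (-1.99), BHLHE40 fell by 2.09 and IRF4 by 0.37 on the log2 scale. The falls of BCL6, the germinal centre factor (-0.84), and IKZF1 (-0.95) and the rise of XBP1 (0.60) were lost in the fit over 36 libraries, with adjusted p-values of 0.0501, 0.137 and 0.310. The XBP1 call was also lost without the first or second DMSO library (adjusted p = 0.0633 and 0.0707) or the third idelalisib library (adjusted p = 0.119).

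Surface genes for contact with T cells also rose, 13 of 22 against 4 that fell. CD80 and CD86, ligands of CD28, were at 38.8 to 45.9 CPM and 9.56 to 11.6 CPM with DMSO and at 87.8 to 99.4 CPM and 17.0 to 22.1 CPM with idelalisib (log2 fold changes 1.17 and 0.93), and CD83 rose by 1.29 and CD40 by 1.22. Of 16 MHC class II genes 5 rose, including CIITA, the coactivator of the locus (0.65), HLA-DRA (0.75) and HLA-DMB, of the peptide-loading chaperone (1.49), and 3 fell. HLA-DRB1 and HLA-DRB5, at -0.22 and -0.26, have near-identical copies that share reads. B2M, the light chain of class I, rose in CPM (2844 to 3053 and 5575 to 6607, 1.06), but was not called in the fit over 36 libraries (adjusted p = 0.284). Of 21 genes of homing, adhesion and retention 6 rose and 8 fell: the chemokine receptors CCR6 (8.0 to 14.8 CPM and 43.3 to 48.5 CPM, 2.06) and CXCR4 (0.82) rose, while the integrin chains ITGAL (-0.94) and ITGB2 (-0.88) and the selectin ligand SELPLG (-1.05) fell. S1PR1, the receptor for egress, did not pass (0.14, adjusted p = 0.768). Among 23 cytokines and chemokines 9 rose and 5 fell. LTB, lymphotoxin beta (1.51), TNFSF13B, the survival factor BAFF (1.11), and IL10 (0.90) were higher, CCL22 (-1.21) and CCL5 (-1.04) lower, and the BCR-induced chemokine CCL4 did not pass (-0.09, adjusted p = 0.602). ITGAM, the integrin chain CD11b of myeloid cells, was at 5.98, 6.37 and 7.72 CPM with DMSO and at 42.6, 42.0 and 44.6 CPM with idelalisib (2.69), and made up nearly all of the summed level of the monocyte markers, the defining markers CD14 and LYZ being too low to test.

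The RNA of the drug target did not pass the test. PIK3CD, the delta catalytic subunit, was at 214, 215 and 192.2 CPM with DMSO and at 199, 212 and 211 CPM with idelalisib, a log2 fold change of 0.00 with SE 0.109 (adjusted p = 0.992). PIK3CA, the alpha subunit (-0.27), PIK3CB, beta (-0.55), and the regulatory subunit PIK3R1 (-0.61) fell, and PIK3CG, gamma, rose from 17.0 to 18.2 CPM to 20.5 to 26.5 CPM (0.46). Of 28 PI3K, AKT and mTOR components 3 rose and 19 fell (median -0.31). RICTOR, of mTOR complex 2, rose by 0.69, and PHLPP1, a phosphatase of AKT (-1.54), and EIF4EBP1, the translation repressor 4E-BP1 (-1.46), fell. The fall of AKT1 (-1.01, adjusted p = 0.0173) was lost without the first or second DMSO library (adjusted p = 0.0529 and 0.0512).

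FOXO factors and their known targets were mixed, with 5 of 29 higher and 14 lower (median -0.34). FOXO1 was at 209, 207 and 194 CPM with DMSO and at 84.8, 95.6 and 91.3 CPM with idelalisib (log2 fold change -1.17, SE 0.0632, adjusted p = 9.83e-08). IRS2, an adaptor of insulin receptors (-1.39), fell as well. KLF2, a factor of quiescent lymphocytes, rose from 5.02 to 6.35 CPM to 14.97 to 18.1 CPM (1.51), TNFSF10, the death ligand TRAIL, from 15.7 to 19.4 CPM to 56.6 to 65.3 CPM (1.73), and SESN3 by 0.54. CCNG2 (-0.43, adjusted p = 0.0631) and PIK3IP1 (0.22, adjusted p = 0.372) did not pass, RAG1 was near 0 in all libraries and RAG2 was at 0. The FOXO letters GTAAACA stood in 4 of the 25 promoters available for this list (16%), against 2.498% of those of tested genes. This list was chosen as FOXO genes and known targets, so the share is a description of its members. In 1 of the 4 members that rose and had a promoter, and in 2 of the 12 that fell, the letters were found.

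Genes of carbon and lipid metabolism were mostly lower. Of 34 genes of glycolysis and the hypoxia response 22 fell and 3 rose (median -0.58). HK2, hexokinase II, was at 376, 400 and 388 CPM with DMSO and at 137, 146 and 151 CPM with idelalisib (log2 fold change -1.42, SE 0.068, adjusted p = 5.17e-08). ENO2, an enolase (-1.73), the glucose transporter SLC2A3 (-1.39) and PFKFB4, which sets the level of an activator of glycolysis (-0.81), fell. LDHA (0.28, adjusted p = 0.127) and the transporter SLC2A1 (0.03, adjusted p = 0.949) did not pass. The groups did not overlap for LDHA, whose adjusted p lay between 0.027 and 0.30 under the other normalisations, filters and tests. PDK1, the kinase that closes entry into the tricarboxylic acid cycle, rose (0.83). In that cycle 15 of 21 genes fell and 3 rose, with IDH2 (-1.43), pyruvate carboxylase PC (-1.12) and citrate synthase CS (-1.05) at the lower end. Of 17 genes of fatty acid synthesis 12 fell and 2 rose. FASN, fatty acid synthase, read 778, 750 and 757 CPM against 193, 220 and 237.9 CPM (-1.81), SCD, the desaturase, 1807 to 2070 CPM against 1015 to 1118 CPM (-0.89), and the acetate-activating enzyme ACSS2 fell by 1.61 on the log2 scale. ELOVL6, an elongase, rose (0.90). Of 24 genes of cholesterol synthesis and uptake 14 fell and 3 rose, from MVD (-1.31) and DHCR7 (-1.12) to SQLE (-0.32), while INSIG1, which is under SREBP control, did not pass (0.03, adjusted p = 0.761). SREBF1, which encodes SREBP-1, fell by 0.27 (adjusted p = 0.0308), a call lost under the stricter filter (adjusted p = 0.155). The cholesterol exporter ABCG1 fell by 1.86 and ABCA1 rose by 0.83, the latter call being lost in the fit over 36 libraries (adjusted p = 0.134). In nucleotide synthesis 7 of 17 genes fell, CAD of the pyrimidine pathway (-1.16) and IMPDH2 of the guanine pathway (-1.01) among them, and 4 rose.

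Most genes for the proteins of the cytosolic ribosome rose. Of 78 cytosolic ribosomal protein genes 58 rose, 17 of them at least 2-fold, and 1 fell (median 0.63). RPS15A was at 491, 409 and 398 CPM with DMSO and at 1580, 1380 and 1735 CPM with idelalisib (log2 fold change 1.86, SE 0.116, adjusted p = 2.38e-07), RPL39 at 664 to 746 CPM and 1539 to 1901 CPM (1.35), and RPS2 was the member that fell, from 2730 to 2994 CPM to 1630 to 2168 CPM (-0.59). Ribosomal protein genes have many processed pseudogenes with near-identical sequence, so part of their counts is uncertain. Of 40 MYC targets and ribosome biogenesis genes 11 rose and 15 fell (median -0.12), NCL, nucleolin, from 515 to 613 CPM to 226 to 233.7 CPM (-1.26) and FBL, the methyltransferase fibrillarin, from 244 to 300 CPM to 120 to 122 CPM (-1.14), while POLR1C, a subunit of RNA polymerases I and III, rose (1.13). MYC could not be read: it stood at 211, 11.2 and 170 CPM with DMSO and at 156, 162 and 9.36 CPM with idelalisib (-0.26, adjusted p = 0.834), with 1 library of each group far below the other 2. It is one of 106 genes (1.11% of the 9562 with a mean of at least 10 CPM) whose libraries spanned more than 4-fold within a group.

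All 13 mitochondrially encoded protein genes rose, 8 of them at least 2-fold (median 1.19). MT-CO1, of cytochrome c oxidase, was at 2382, 3091 and 2094 CPM with DMSO and at 5268, 4582 and 5217 CPM with idelalisib (log2 fold change 0.99, SE 0.151, adjusted p = 0.000184), and MT-ND3 and MT-ATP8, of complex I and ATP synthase, rose by 1.77 and 1.87. Of 76 nuclear genes of the respiratory chain 43 rose and 7 fell (median 0.37), NDUFA4 among the former (1.49) and SDHA, of complex II, among the latter (-1.24). Of 76 mitochondrial ribosomal protein genes 37 rose and 10 fell (0.28). Histone genes rose in 42 of 53 cases with none lower (0.66), as in HIST1H2AJ at 182 to 220 CPM with DMSO and 424 to 516 CPM with idelalisib (1.26).

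The changes varied with transcript length, GC content and level. With the genes cut into 5 equal bins, median log2 fold changes were 0.63, 0.09, 0.00, -0.07 and -0.14 from the shortest to the longest transcripts, and 0.33, 0.24, 0.15, -0.05 and -0.36 from the lowest to the highest GC content. They were 0.92, 0.36, 0.04, -0.13 and -0.22 from the lowest to the highest level. After each gene was centred on genes of like GC content and length, an analysis added once the data had been seen, the median was 0.12 for histones, 0.02 for the respiratory chain, 0.02 for mitochondrial ribosomal proteins, 0.39 for cytosolic ribosomal proteins and 0.59 for mitochondrially encoded proteins. The centred median was -1.19 for the ATF4 list, -0.79 for DNA replication, -1.05 for immediate early genes, 0.89 for interferon-stimulated genes and 1.02 for immunoglobulin genes. It was -0.28 for chromatin modifiers, -0.10 for PI3K, AKT and mTOR components and 0.01 for the NF-kB genes. It was -0.15 for JAK and STAT feedback, 0.04 for cytokines and chemokines, -0.13 for the proteasome and 0.02 for MYC targets and ribosome biogenesis, whose medians before centring were -0.47, 0.30, 0.13 and -0.12. Between ibrutinib and DMSO the shortest bin was at 0.33 and the longest at -0.07, and between idelalisib and ibrutinib at 0.22 and -0.08. By gene class, of 1237 long noncoding RNAs 510 rose and 38 fell, of 1369 processed pseudogenes 425 rose and 79 fell, and of 118 genes annotated as miscellaneous RNA 42 rose and 1 fell, whereas of 13750 protein-coding genes 3507 rose and 4615 fell. Protein-coding genes took 85.3% of the counts with DMSO and 75.0% with idelalisib. To be tested, a gene had to reach the minimum count in as few libraries as 1 group holds. Genes near the floor could thus enter through the group where they were higher. The part of this filter in the bins of low level and in the counts by gene class was not tested.

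**Figure D1:**
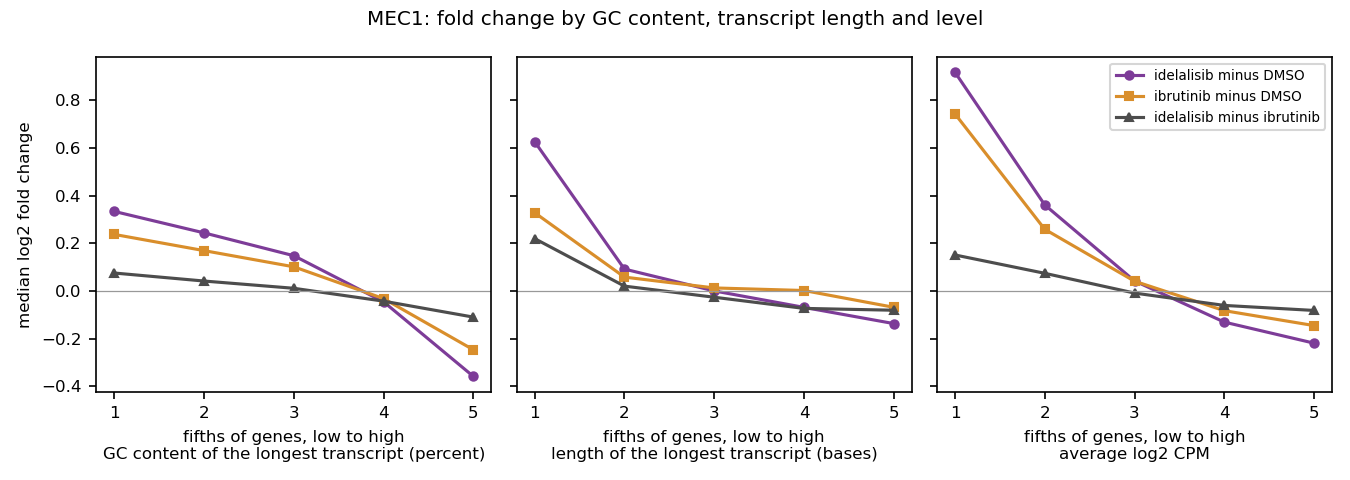
Median log2 fold change of the genes tested in MEC1, in 5 bins of GC content, transcript length and level, for idelalisib against DMSO, ibrutinib against DMSO and idelalisib against ibrutinib. The first 2 contrasts share their DMSO libraries. For idelalisib against DMSO the medians fall from 0.63 in the shortest to -0.14 in the longest bin.

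Other signalling lists were mixed. Of 27 NF-kB genes 7 rose and 13 fell (median -0.37). NFKB1 was at 202 to 204 CPM with DMSO and 106 to 119 CPM with idelalisib (log2 fold change -0.83), NFKB2 fell by 0.71 and the inhibitory enzyme TNFAIP3, known as A20, by 1.00, while the inhibitor NFKBIA (0.56) and the kinase IKBKE (1.46) rose. Of 19 genes of JAK and STAT feedback 11 fell, STAT3 (-1.01), STAT5B (-1.14) and the kinases PIM1 (-0.68) and PIM3 (-1.55) among them, and 2 rose, SOCS1 (0.40) and STAT6 (0.43), while PIM2 did not pass (0.00, adjusted p = 0.969). Of 22 heat shock chaperones 12 fell and 4 rose. HSPA1A and HSPA1B, near-identical copies of inducible HSP70, fell from 19.5 to 21.6 CPM to 4.06 to 5.06 CPM (-2.17) and from 30.9 to 33.3 CPM to 6.20 to 7.95 CPM (-2.14), and HSPB1 fell by 1.46. In the endoplasmic reticulum 15 of 28 folding genes fell, with the chaperone HSPA5 at 1505 to 1512 CPM and 976 to 1027 CPM (-0.59), and 3 rose. Of 31 proteasome genes 14 rose, the core subunits PSMA3, PSMA4 and PSMA5 among them (1.19, 1.22 and 1.22), and 9 fell, the regulatory subunits PSMD2 and PSMD11 among them (-0.86 and -0.76). Of 39 lysosomal genes 11 rose, such as cathepsins S and H (CTSS 1.28, CTSH 1.09), and 9 fell, such as the glucosidase GAA (-1.15) and cathepsin D, CTSD (-0.88). In autophagy 9 of 24 fell, including the cargo receptor SQSTM1 (-1.07) and the initiating kinase ULK1 (-1.06), and 5 rose, including VMP1 (1.10). Chromatin modifiers fell in 27 of 35 cases and rose in 1, led by the DNA methyltransferase DNMT3A (-1.40), the remodeller SMARCA4 (-1.10) and the methyltransferase NSD2 (-1.08). Of 27 genes of the actin cytoskeleton 13 fell, MYH9, a nonmuscle myosin, from 651 to 689 CPM to 220 to 265 CPM (-1.46), and 7 rose, TMSB4X, which binds free actin, by 0.99.

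Genes of cell death showed no single direction. Of 7 survival and effector members of the BCL2 family 1 rose and 2 fell: BCL2A1, a target of NF-kB, went from 26.9, 27.9 and 28.5 CPM to 71.9, 59.5 and 71.7 CPM (log2 fold change 1.29, adjusted p = 1.82e-07), whereas BCL2 (487 to 515 CPM and 430 to 501 CPM, adjusted p = 0.211) and MCL1 (228 to 242 CPM and 175 to 224 CPM, adjusted p = 0.0707) did not pass. Of the 7 BH3-only genes tested 2 fell, BBC3, known as PUMA (-1.64), and BMF (-0.52), and 1 rose at least 2-fold. BCL2L11, known as BIM, could not be read, with idelalisib libraries at 53.4, 6.84 and 21.1 CPM against 14.6 to 19.1 CPM with DMSO. CFLAR, which blocks caspase 8, rose (1.44), and so did the death receptor FAS, from 36.4 to 40.8 CPM to 63.6 to 93.0 CPM (1.08, adjusted p = 0.0050). Of 23 targets of p53 7 rose and 11 fell, with TP53INP1 at 127 to 147 CPM and 482 to 509 CPM (1.88), MDM2 at 249 to 275 CPM and 338 to 401 CPM (0.51) and CDKN1A at 112 to 115 CPM and 45.2 to 50.6 CPM. MEC1 being listed as p53-mutated, these values are not given as a measure of p53 activity, which was not tested.

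The glucuronidating enzyme UGT2B17, which conjugates steroids and drugs, was at 17.1, 16.6 and 17.4 CPM with DMSO and at 51.2, 46.3 and 52.6 CPM with idelalisib (log2 fold change 1.55, SE 0.0809, adjusted p = 8.22e-08). UGT2B15, its neighbour on chromosome 4, was lower on this scale and rose from 1.75 to 4.65 CPM to 9.75 to 12.5 CPM (1.69). The 2 genes are close paralogues, so reads may be split between them. Of the 6 genes of glucuronidation that could be tested SLC35D1, a transporter of the sugar donor, fell (-0.32), and the counts given to the UGT1A genes were too low to test. By RT-qPCR the study did detect UGT1A RNA in MEC1, and reported its low level as altered by each drug. Among 10 drug efflux transporters 2 rose and 1 fell: ABCC4 (0.63) and ABCC10 (0.96) were higher, ABCB1 was lower (-0.58) and ABCC1 did not pass (-0.08, adjusted p = 0.363).

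By absolute change in mean CPM, the largest gains were in noncoding RNAs and the largest losses mostly in abundant messenger RNAs. RN7SK was at 31120, 25900 and 29710 CPM with DMSO and at 71370, 56720 and 72520 CPM with idelalisib (log2 fold change 1.21), and RN7SL1, RN7SL2, RN7SL4P and RPPH1 rose by 0.88, 0.88, 0.97 and 0.93. The 7SL entries are near-identical copies. EEF2, the elongation factor of translation, lost most (5448 to 6308 CPM against 2846 to 3061 CPM, -0.98), followed by GAPDH (-0.63), the tubulin TUBB (-1.24), MIR3648-1 and ENO1 (-0.56).

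Idelalisib was set against ibrutinib within the neighbouring library numbers. Of the genes tested 1053 (6.01%) were higher and 1641 (9.37%) lower with idelalisib than with ibrutinib, 2694 in all. Scaled by library size alone the split was 493 higher and 3852 lower, and the total was 1376 without the first and 1654 without the third ibrutinib library, and 1483 without the first and 1663 without the third idelalisib library. Both drugs were compared with the same DMSO libraries, so their values against DMSO are given side by side only: the list medians were -1.38 for idelalisib and -1.07 for ibrutinib in the ATF4 list, -0.94 and -0.68 in DNA replication, -1.04 and -1.06 in the immediate early genes, 1.04 and 1.07 in the interferon-stimulated genes and 0.84 and 0.81 in the immunoglobulin genes. In the direct comparison 15 of 41 ATF4 genes were lower with idelalisib and 1 higher, 18 of 54 replication genes lower and 5 higher, 16 of 22 chaperones lower and none higher, and 20 of 40 MYC and ribosome biogenesis genes lower and 1 higher. Cytosolic ribosomal proteins were higher with idelalisib in 63 of 78 cases and lower in none, but the drugs also differed by transcript length as given above.

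Single genes told the drugs apart in both directions. CD69 was at 287.7, 244 and 286.5 CPM with idelalisib and at 113, 132.6 and 128 CPM with ibrutinib (log2 difference 1.13, SE 0.0798, adjusted p = 0.000317), and CXCR4 at a mean of 149.9 and 84.7 CPM (0.82). Among genes at a mean of at least 10 CPM, those furthest above ibrutinib were CNOT8 (1.47), the kinase IRAK4 (1.32), the splicing factor PTBP2 (1.20), the pseudogene RPS15AP38 (1.18) and IGHD, the heavy chain of IgD (1.16). CNOT8 ranged from 51.1 to 113 CPM within the idelalisib libraries. Furthest below were DUSP22 (-1.96), ATF5 (-1.28), the cyclin CCND2 (-1.09), PFKFB3 (-0.97) and the chemokine CCL22 (-0.96). DUSP22 read 40.6 to 45.7 CPM with idelalisib, 141 to 182 CPM with ibrutinib and 21.5 to 42.7 CPM with DMSO. CCL22 read 43.0 to 46.1 CPM, 75.9 to 94.4 CPM and 98.6 to 106 CPM in the same order. FASN (-0.54), HK2 (-0.44) and FOXO1 (-0.33) were lower with idelalisib than with ibrutinib, and UGT2B17 was higher (0.40, adjusted p = 0.00696). ISG15 (0.06, adjusted p = 0.810) and PHGDH (-0.16, adjusted p = 0.299) did not pass.

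The effect of idelalisib in MEC1 was tested against that in JVM2, where line and exposure time (48 h and 72 h) cannot be told apart. Of 18017 genes 3026 (16.8%) changed more upwards in MEC1 and 3676 (20.4%) more downwards, and the split was 2165 and 4670 with libraries scaled by size alone. For 1407 genes the drug effect was called in both lines in opposite directions, 650 of them higher in MEC1 and 757 lower. The ATF4 list had a median of -1.38 in MEC1 and 0.11 in JVM2, and the MEC1 effect was below that of JVM2 for 35 of 41 genes and above for none. INHBE fell in MEC1 by 3.40 and rose in JVM2 by 0.93 on the log2 scale, from 10.2 to 10.9 CPM to 19.0 to 21.5 CPM (difference -4.34, SE 0.115, adjusted p = 1.42e-08), and CHAC1 differed in the same way (-3.65). Mitosis genes fell further in JVM2, with a median of -2.21 against -0.48, and the MEC1 effect was above for 40 of 42 genes. The medians in JVM2 were -1.42 for histone genes and -0.50 for cytosolic ribosomal proteins, and the MEC1 effect was above for 48 of 52 and 73 of 78 genes. IGKC rose by 2.29 in MEC1 and fell by 0.80 in JVM2, and CD69 rose by 2.15 and fell by 0.77. IFIT1 rose in both (3.63 and 1.75), as did ISG15 (1.72 and 1.46) and UGT2B17 (1.55 and 1.85), and CDT1 fell in both (-2.26 and -2.48, adjusted p of the difference = 0.164).

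**Figure D2:**
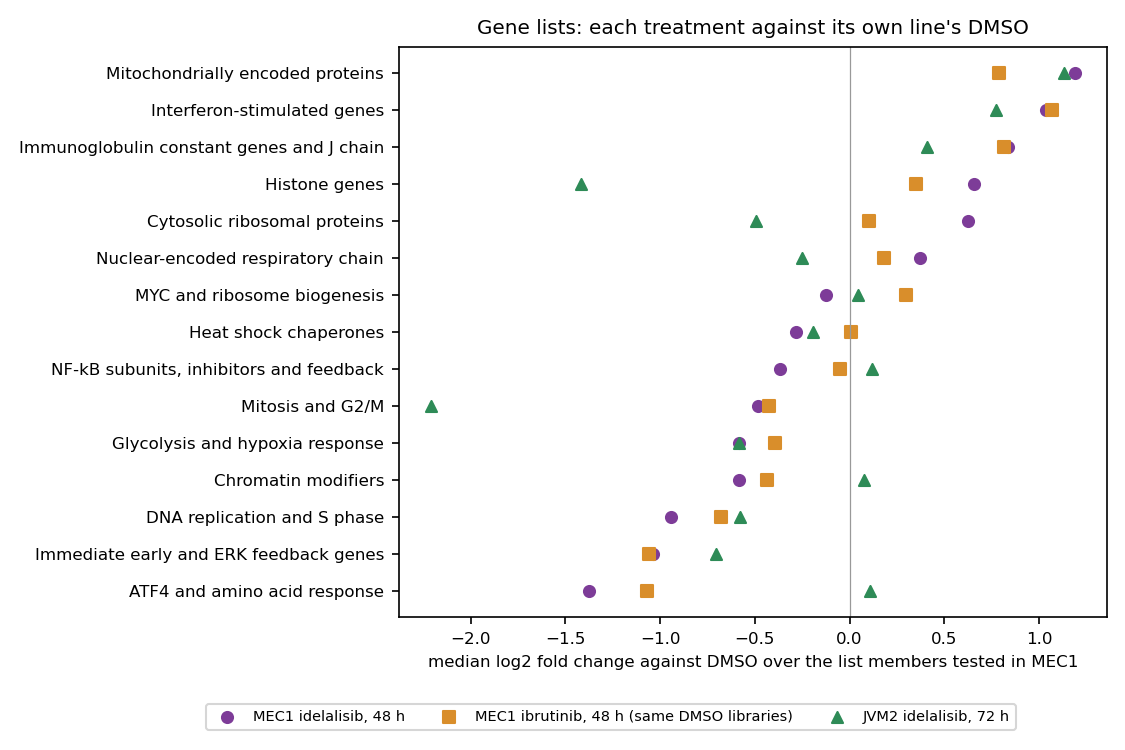
Median log2 fold change against DMSO of 15 gene lists for idelalisib in MEC1 at 48 h, ibrutinib in MEC1 at 48 h and idelalisib in JVM2 at 72 h, each against its own line's DMSO libraries. The MEC1 contrasts share their DMSO libraries. The ATF4 list lies at -1.38, -1.07 and 0.11 and the mitosis list at -0.48, -0.43 and -2.21.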

How the data were processed

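RNA was extracted from MEC1 cells and depleted of rRNA before sequencing. According to the submitters' processing notes and the study's methods, reads were trimmed with Trimmomatic and aligned to hg38 with HISAT2 (version 2.1), and StringTie (version 1.3.4) gave estimated counts per gene, deposited by the authors as whole numbers. The annotation release and the strand setting were not given in the sources used here. Among values from 1 to 9 in the 36 libraries, 1 was the most frequent (46924 values). The values 3, 6 and 8 (36308, 20424 and 10311) were each more frequent than the value just below (23798, 12873 and 8717). Multiples of 8/3, rounded up, would lie at these values, but the step was not tested. The authors' own fold changes and their edgeR tables were not used.

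Of 37550 entries 1 had no symbol and held 0.00384% of the counts; it was left out. Positions, lengths and GC content came from GENCODE on GRCh38. Genes were kept by filterByExpr (minimum count 10, minimum total 15) and tested with edgeR 4.0.16 (TMM, quasi-likelihood F-test, Benjamini-Hochberg adjustment) in a fit of all 12 MEC1 libraries. A gene was called at an adjusted p under 0.05. JVM2 entered a separate fit with a line by treatment term. Only libraries of the same group were treated as replicates. Pairs of replicates differed by 29.6 to 52.1 times the counting noise (chi-square per degree of freedom), so none was a repeat deposit. Libraries held 37077174 to 46425576 counts, which limits what genes of few counts can show.

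Named genes were key genes of the lists, up to 3 called higher and 3 called lower per list at a mean of 5 CPM or more, the 10 highest and 10 lowest log2 fold changes called by edgeR, DESeq2 1.42.0 and limma-voom (limma 3.58.1) at 10 CPM or more, 5 in each direction for each of the other comparisons, and the 5 largest gains and losses in CPM; AARS, CARS, LIG1 and ISG20 were named by the promoter search. Some genes of the lists are counted but not reported here by name. The members and lists were chosen with earlier results of these data known. Alternatives covered other normalisations, filters, tests, sample sets, each library left out and, chosen after seeing the data, counts divided by 8/3 and list medians centred on GC content and length.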

Additional observations from a re-analysis of the deposited data

Results flagged for a closer look

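The effect of idelalisib differed between MEC1 at 48 h and JVM2 at 72 h for 6702 genes by the line by treatment term of edgeR's quasi-likelihood test, and for 245 of the 366 genes of the naming rule that could be tested. The line and the exposure time cannot be told apart in this difference. Below 0, the difference on the log2 scale was largest for INHBE (-4.34), KALRN (-4.30), EPB41L1 (-3.96), FLT1 (-3.84) and SOCS3 (-3.47). EPB41L1, a protein of the membrane skeleton, read 5.89 to 6.83 CPM with DMSO and 0.152 to 0.296 CPM with idelalisib in MEC1, and 25.4 to 33.2 CPM and 16.4 to 19.3 CPM in JVM2. FLT1, a receptor of vascular growth factors, fell in MEC1 from 164 to 187 CPM to 98.8 to 102 CPM and rose in JVM2 from 0.525 to 1.74 CPM to 10.4 to 11.6 CPM. KALRN and SOCS3 were below 2 CPM in every DMSO and idelalisib library of MEC1.

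Above 0 the difference was largest for IGHV1-69 (8.82), PLOD2 (8.18), CD200R1 (6.99), ALDH1L1 (5.70) and THY1 (5.33). Each of these had a group with all its libraries at 0, so the fitted value depends on the prior count and is no bound. IGHV1-69, an immunoglobulin variable gene with related copies, rose in MEC1 from 32.7 to 37.9 CPM to 107 to 118 CPM and was at 0 in the idelalisib libraries of JVM2. PLOD2, a collagen-modifying enzyme, was at 0 in the MEC1 DMSO libraries and at 15, 32 and 19 counts in the idelalisib libraries, and CD200R1 was at 0 and at 26, 20 and 12 counts. ALDH1L1 and THY1 had at most 6 counts in any DMSO or idelalisib library of MEC1. All 4 were expressed in JVM2, PLOD2 at 182 to 186.3 CPM with DMSO and CD200R1 at 26.6 to 35.0 CPM.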

How the results depend on the processing

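No paired analysis was possible because the DMSO and idelalisib libraries share no replicate number. The count of genes called between idelalisib and DMSO lay between 7451 under a stricter filter (mean of at least 5 CPM) and 9988 with DESeq2, and between 8633 and 8893 with 1 library left out; none of the genes called in both an alternative and the reported analysis changed direction. Under the stricter filter, which tests fewer genes, the calls of at least 2-fold were 955 higher and 686 lower. Against ibrutinib the calls moved more: 4345 in all (493 higher, 3852 lower) with libraries scaled by size alone, 1504 in all (712 lower) in a fit of both groups alone, and 950 lower without a filter; the cause was not tested. With 1 library left out they lay between 1376 and 2885 in all, 483 and 1052 higher and 893 and 1833 lower. The lowest total, 1376, was without the first ibrutinib library, and the total was 1654 without the third, 1483 without the first idelalisib library and 1663 without the third. The count of genes that differed between MEC1 and JVM2 lay between 6124 and 7373. ATF5 lost its call against ibrutinib in the fit of both groups alone and without the third ibrutinib or the first or the third idelalisib library. Of the named genes, 14 lost their call in the fit over 36 libraries, 12 with size scaling and 12 under the stricter filter. Depth limits genes below about 1 CPM.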

Other observations

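Other lists had shares of called genes near the 55.0% of all genes tested or below. Of 9 AMPK subunits and upstream kinases 2 rose, the pseudokinase STRADA (log2 fold change 0.89) and PRKAA1 (0.28), and 3 fell, with STK11, the kinase LKB1, at 64.5 to 74.0 CPM with DMSO and 36.4 to 37.96 CPM with idelalisib (-0.90). Of 20 long noncoding hosts of snoRNAs 7 rose and 2 fell. GAS5, a host whose transcript accumulates when growth stops, was at 136, 132 and 133.3 CPM with DMSO and at 276, 246 and 289 CPM with idelalisib (1.02, SE 0.106, adjusted p = 9.99e-06), and at 131 to 167 CPM with ibrutinib. ZFAS1 rose by 0.91 and SNHG10 by 1.19. Of 11 genes of cholesterol efflux 2 rose and 4 fell. Of 15 genes of MHC class I and peptide loading 7 rose, led by the peptidase ERAP2 (1.22), and HLA-E fell (-0.39). Of 18 death receptor and caspase genes 5 rose and 4 fell.

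The sterol element letters TCACNCCAC stood in 1 of the 18 promoters available for the cholesterol list (5.56%, against 1.18% of those of tested genes), the E-box CACGTG in 13 of 33 of the MYC and ribosome biogenesis list (39.4%, against 9.88%), and TTTGAA, the cell cycle homology region, in 23 of 36 of the mitosis list (63.9%, against 10.5%), each searched on both strands. These lists too were chosen by known function, so the shares are descriptions of their members. None of the motifs searched contains another. In the mitosis list 17 of the 28 members that fell and 3 of the 4 that rose held the letters.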
